A study of Mus musculus with 6 samples.

Results

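The 10 genes described here encode the machinery that makes microRNAs and that silences mRNAs with them, namely Drosha, Dgcr8, Xpo5, Dicer1, Tarbp2, Ago1, Ago2, Ago3, Ago4 and Tnrc6a. They were chosen by gene symbol from the 34714 symbols of the count table, and all 10 were found. The RNA came from Gas (gastrocnemius) muscle, a calf muscle, of untreated mice at 8 weeks of age, 3 of them WT and 3 M92KO, and each mouse gave 1 library. M92KO mice carry a global knockout of miR-92b (strain C57BL/6JGpt-Mir-92bem22Cd549/Gpt), so that the microRNA was deleted in every cell type and throughout development, and not in muscle fibres alone. According to the methods of the study, the mice were male and the WT controls were age-matched C57BL/6 mice, which are not described as littermates. The question was whether the loss of 1 microRNA was accompanied by different mRNA levels of the machinery that all microRNAs share.

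A primary microRNA transcript is cut in the nucleus by the Microprocessor, in which the ribonuclease Drosha works with the RNA-binding protein Dgcr8. The hairpin is exported by Exportin-5 (Xpo5) and cut again in the cytoplasm by Dicer (Dicer1), which is aided by its partner Trbp (Tarbp2). The mature strand is loaded into an Argonaute protein (Ago1 to Ago4), of which Ago2 is the one best known for cutting a fully matched target. Argonautes recruit GW182 proteins such as Tnrc6a, which bring in the enzymes that shorten the poly(A) tail and remove the cap. In skeletal muscle, this machinery also serves the abundant muscle microRNAs, and the deletion of Dicer from developing muscle is known to reduce muscle mass.

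The microRNA that M92KO mice lack is shown first, since its seed (bases 2 to 8, in capitals) decides which 3′-UTRs it can match. Both arms come from the minus strand of chromosome 3, and the sequences are those of RefSeq on GRCm38.p6.
miR-92b-3p (chr3:89227126-89227147): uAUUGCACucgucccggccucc
miR-92b-5p (chr3:89227165-89227188): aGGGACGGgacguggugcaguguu
The seed of miR-92b-3p is shared by 6 mature mouse microRNAs, the other members being miR-25-3p, miR-32-5p, miR-92a-3p, miR-363-3p and miR-367-3p. The seed of miR-92b-5p was found in 1 mature microRNA, miR-92b-5p itself. Matches were searched in the annotated 3′-UTRs of GENCODE M21 (GRCm38), on the mRNA strand only. For miR-92b-3p, GTGCAATA was counted as an 8mer and GTGCAAT or TGCAATA as a 7mer, and an 8mer holds both 7mers. For miR-92b-5p, the 8mer was CCGTCCCA and the 7mers were CCGTCCC and CGTCCCA. Of 20423 genes with a 3′-UTR of at least 20 bases, 13.5% held a match for miR-92b-3p and 4.60% held one for miR-92b-5p.

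For 3 of the 10 machinery genes, Ago2, Ago3 and Dicer1, a 3′-UTR held a match of either arm. By arm, 2 (Ago2 and Ago3) held a miR-92b-3p match and 2 (Ago2 and Dicer1) a miR-92b-5p match. The share of all genes with a match of either arm was not computed. Matches are shown with the matched bases in capitals, since these are the places where the deleted microRNA could pair with its own machinery's mRNAs. All lie on minus-strand genes, and the sequences are given as DNA in the direction of the mRNA.
Ago3, miR-92b-3p 8mer (chr4:126344250-126344257): gctctcttttaGTGCAATAagcagttttac
Ago3, miR-92b-3p 8mer (chr4:126333844-126333851): caccgtgtgcaGTGCAATAgctaacactga
Ago2, miR-92b-3p 7mer (chr15:73096100-73096106): tgcactattttTGCAATAaattcatggga
Ago2, miR-92b-5p 8mer (chr15:73106748-73106755): cagaatgccttCCGTCCCAgatgtcagact
Ago2, miR-92b-5p 7mer (chr15:73104639-73104645): gctttctgaggCCGTCCCcccttatgatg
Dicer1, miR-92b-5p 7mer (chr12:104689094-104689100): gcactgttgggCCGTCCCctgtggccctt
Each of the Ago3 matches lay in 1 of the 2 annotated 3′-UTRs of that gene. The longest 3′-UTRs of Ago2 and Ago3 have 11064 and 12742 bases. Among the 62 genes with a 3′-UTR of at least 10000 bases, 67.7% held a miR-92b-3p match, 21.0% held a miR-92b-3p 8mer, 19.4% held a miR-92b-5p match and 9.68% held a miR-92b-5p 8mer. A match of this kind is a description of the letters and not a measured binding site.

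The exons of Dgcr8 carry microRNA hairpins of their own, and this mRNA is a known substrate of the Microprocessor. The microRNA positions are those of RefSeq. In the GENCODE M21 transcripts of the gene, miR-1306 lies within the coding sequence and miR-3618 in an exon outside it. Both are on the strand of the gene, and the seeds are in capitals.
miR-1306-3p (chr16:18284248-18284268): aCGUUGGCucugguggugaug
miR-1306-5p (chr16:18284288-18284310): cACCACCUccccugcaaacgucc
miR-3618-3p (chr16:18284562-18284583): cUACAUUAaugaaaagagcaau
miR-3618-5p (chr16:18284602-18284623): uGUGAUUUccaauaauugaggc

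The libraries held between 33160508 and 48209846 counts, and the 3 M92KO libraries were the smallest. A row for the deleted microRNA was not analysed here, so the knockout was not checked in these counts. Fast-fibre markers such as Acta1, Ckm and Myh4 had a summed level of 90891 to 106659 CPM in the 6 libraries, and none of these markers was at 0. CPM values here are counts corrected for library size and for composition by TMM normalization. Fibroblast markers (Pdgfra, Col1a1, Col3a1, Dcn and Lum) summed to between 1373 and 1740 CPM in WT and to between 906 and 1290 CPM in M92KO libraries. By edgeR, 0 of these 5 passed 0.05 after adjustment and 2 did so before it, both lower in M92KO mice. Lower at an unadjusted p-value of 0.05 were also 2 of 4 nerve and Schwann cell markers and 1 of 5 macrophage and leukocyte markers. Of all genes tested, 6.92% were lower at this threshold. The summed levels of the nerve and leukocyte lists overlapped between the groups. In the fast-fibre, slow-fibre, endothelial, fat cell and red cell lists, 0 markers passed this threshold in either direction. The summed level of the satellite cell markers Pax7 and Myf5 was 7.31 to 9.60 CPM in WT and 10.3 to 12.4 CPM in M92KO libraries. Of these 2 markers, 1 was higher at the unadjusted threshold, as were 5.47% of all genes tested. The part of these lists in the values of the machinery genes was not tested. In whole muscle, a lower number of cells of a type and less RNA in each cell cannot be told apart. In the library of the first M92KO mouse, 50.4% of the genes tested had their highest or lowest value of the 6 libraries, against 23.2% to 35.3% in the other libraries.

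For the 10 machinery genes, no difference in mRNA level between WT and M92KO mice passed the adjusted threshold. In edgeR's quasi-likelihood test, 0 of the 10 were under 0.05 by the adjusted p-value and 0 by the unadjusted p-value. Across the 15788 genes tested, 0% passed the adjusted threshold and 12.4% the unadjusted one. DESeq2's Wald test gave 0 of the 10 at either threshold, where 2.19% of all genes passed its adjusted threshold. The log2 fold changes of M92KO against WT ran from -0.08 (Ago4) to 0.13 (Tnrc6a), with 6 above and 4 below 0. The median absolute log2 fold change was 0.06, and it was 0.12 over all genes tested. For the 9 genes other than Ago2, the 95% intervals of the edgeR fit, each for 1 gene, lay between 0.822-fold and 1.21-fold. These limits hold for this fit only. With offsets for GC content and transcript length, for example, the log2 fold change of Tnrc6a was 0.20 (standard error 0.080). The interval of Ago2 was wider, from 0.661-fold to 1.74-fold, so similar levels were not shown for it. In 1 of the 10 genes, Tnrc6a, the groups did not overlap, as was the case for 18.3% of all genes tested. The counts behind these values were between 510 and 3837 in a library, and 510 counts (Ago4, first M92KO mouse) gave 14.7 CPM with an exact Poisson 95% interval of 13.4 to 16.0, for counting error only.

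**Figure D1:**
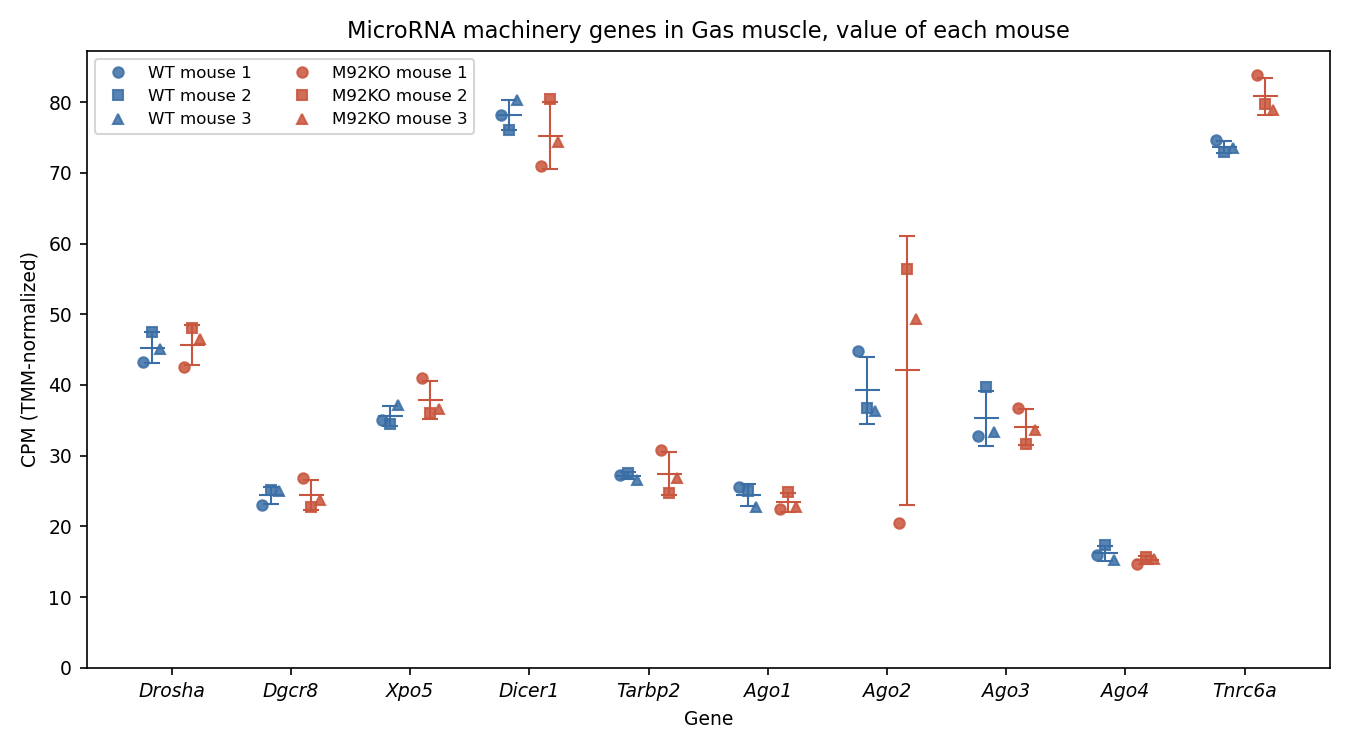
TMM-normalized CPM (y axis) of the 10 machinery genes (x axis) in each WT (blue) and M92KO (red) mouse, with the group mean and SD (n = 3). The groups lie on top of each other for most genes, Tnrc6a lies higher in all 3 M92KO mice, and Ago2 is spread from 20.5 to 56.4 CPM within the M92KO group.

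Both genes of the Microprocessor had means that nearly coincided. Drosha (ENSMUSG00000022191, chr15:12824815-12935291 on GRCm38, plus strand), the nuclear ribonuclease, stood at 43.2, 47.5 and 45.0 CPM in the WT mice and at 42.5, 48.0 and 46.5 CPM in the M92KO mice. The groups overlapped, and the M92KO mice held both the lowest and the highest value. The log2 fold change of Drosha was 0.01 (standard error 0.074, 95% interval -0.16 to 0.18, adjusted p = 0.964 from edgeR). Dgcr8 (ENSMUSG00000022718, chr16:18253948-18289246, minus strand), the RNA-binding partner, stood at 23.0, 25.2 and 25.0 CPM in WT and at 26.9, 22.7 and 23.8 CPM in M92KO mice. Here too the lowest and the highest value both belonged to M92KO mice. Its log2 fold change was 0.00 (standard error 0.087, 95% interval -0.20 to 0.20, adjusted p = 0.993). Exons of Dgcr8 overlap those of Trmt2a on the opposite strand, and genes overlapping its exons cover 17.1% of its exon bases. Whether counting used strand is not given in the sources used here, so some reads of Dgcr8 may belong to its neighbours.

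The log2 ratio of Drosha to Dgcr8, with counts divided by exon length, was 1.27 ± 0.038 (SD, n = 3) in WT and 1.28 ± 0.22 (SD, n = 3) in M92KO mice. It did not differ between the groups beyond their spread (two-sided exact permutation test, p = 1, smallest possible p = 0.1). The M92KO values were 1.04, 1.46 and 1.34, and the WT values were 1.28, 1.29 and 1.22. The first M92KO mouse had the lowest ratio and the second the highest, so the 3 WT mice lay within the M92KO range.

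The export factor and the Dicer complex also overlapped between the groups. Xpo5 (ENSMUSG00000067150, chr17:46202782-46243598, plus strand), which carries precursor hairpins out of the nucleus, stood at 35.0, 34.5 and 37.2 CPM in WT and at 41.0, 36.1 and 36.6 CPM in M92KO mice. The first M92KO mouse was highest, and the other 2 lay within the WT range. The log2 fold change of Xpo5 was 0.09 (standard error 0.074, 95% interval -0.08 to 0.26, adjusted p = 0.689 from edgeR).

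Dicer1 (ENSMUSG00000041415, chr12:104687742-104751952, minus strand), which encodes the cytoplasmic ribonuclease that frees the mature duplex, stood at 78.2, 76.1 and 80.4 CPM in WT. In M92KO mice it stood at 71.0, 80.4 and 74.3 CPM, of which the first and the third lay below all WT values and the second beside the highest of them. Its log2 fold change was -0.06 (standard error 0.070, 95% interval -0.22 to 0.10, adjusted p = 0.802 from edgeR). Tarbp2 (ENSMUSG00000023051, chr15:102518192-102523676, plus strand), the double-stranded RNA-binding partner of Dicer, stood at 27.3, 27.6 and 26.6 CPM in WT and at 30.8, 24.8 and 26.8 CPM in M92KO mice. WT mice lay close together, whereas M92KO mice lay on both sides of them. The log2 fold change of Tarbp2 was 0.02 (standard error 0.090, 95% interval -0.19 to 0.22, adjusted p = 0.964 from edgeR).

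Prkra, which encodes Pact, the other double-stranded RNA-binding partner of Dicer, stood at 8.93, 7.84 and 8.54 CPM in WT and at 9.30, 9.34 and 8.51 CPM in M92KO mice, with overlap, a log2 fold change of 0.10 and an adjusted p = 0.753 from edgeR. The log2 ratio of Dicer1 to Tarbp2, per exon length, was -0.35 ± 0.066 (SD, n = 3) in WT and -0.42 ± 0.25 (SD, n = 3) in M92KO mice (two-sided exact permutation test, p = 0.8). The log2 ratio of Xpo5 to Dicer1 was 0.15 ± 0.024 (SD, n = 3) in WT and 0.30 ± 0.18 (SD, n = 3) in M92KO mice (two-sided exact permutation test, p = 0.3). With the ratios of Drosha to Dgcr8 and of Ago2 to Tnrc6a, 4 ratios were tested, and all had an adjusted p = 1 by these exact permutation tests.

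Of the Argonaute genes, 3 were close to equal in the groups and Ago2 was the exception in its spread. Ago1 (ENSMUSG00000041530, chr4:126435012-126468583, minus strand) stood at 25.5, 25.1 and 22.7 CPM in WT and at 22.5, 24.9 and 22.8 CPM in M92KO mice. Ago3 (ENSMUSG00000028842, chr4:126331704-126429556, minus strand) stood at 32.8, 39.7 and 33.3 CPM in WT and at 36.7, 31.6 and 33.7 CPM in M92KO mice. Ago4 (ENSMUSG00000042500, chr4:126489541-126533472, minus strand) stood at 16.0, 17.4 and 15.2 CPM in WT and at 14.7, 15.7 and 15.4 CPM in M92KO mice. The groups overlapped for each of these genes, which lie side by side on chromosome 4 and encode Argonautes that silence targets mainly without cutting them. The log2 fold changes were -0.06 for Ago1 (95% interval -0.25 to 0.12), -0.05 for Ago3 (95% interval -0.27 to 0.17) and -0.08 for Ago4 (95% interval -0.28 to 0.11). Their adjusted p-values from edgeR were 0.804 for Ago1, 0.873 for Ago3 and 0.749 for Ago4. Ago3, whose 3′-UTRs hold the pair of miR-92b-3p 8mers printed above, thus had no difference that passed the test.

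Ago2 (ENSMUSG00000036698, chr15:73095844-73184935, minus strand), which encodes the target-cutting Argonaute, stood at 44.7, 36.7 and 36.3 CPM in WT mice. In M92KO mice it stood at 20.5, 56.4 and 49.4 CPM. Thus 2 M92KO mice lay above all WT mice and the first M92KO mouse lay far below them, and the groups overlapped. The raw counts of Ago2 were 2068, 1419 and 1735 in WT and 713, 1848 and 1793 in M92KO libraries. The exact Poisson 95% interval of the low value was 19.0 to 22.1 CPM and that of the lowest WT value was 34.6 to 38.1 CPM, so counting error alone was smaller than this gap. The log2 fold change of Ago2 over all mice was 0.10 (standard error 0.31, 95% interval -0.60 to 0.80, adjusted p = 0.929 from edgeR). Its SD of log2 CPM within groups was 0.57, at percentile 99.1 of the genes within 2-fold of its mean level, whereas that of the other 9 machinery genes lay between 0.035 and 0.13.

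Without the first M92KO mouse, the log2 fold change of Ago2 was 0.43 (standard error 0.105), with an adjusted p = 0.0805 from edgeR, where adjusted p-values of Ago2 ran up to 1 under the other alternatives. In that fit the unadjusted p-value was under 0.05 for 1 of the 10 genes, Ago2. Over all genes, 2984 passed this threshold in that fit, against 1955 of 15788 (12.4%) with all 6 libraries. Without the second M92KO mouse, in contrast, the log2 fold change of Ago2 was -0.17, and without the third it was -0.03. Fibroblast markers in the first M92KO mouse summed to 906 CPM, the lowest of all libraries, against 1290 and 1227 CPM in the other M92KO mice. Its endothelial (646 CPM), macrophage and leukocyte (27.9 CPM) and slow-fibre (11.1 CPM) sums were also the lowest of all libraries. The sums of the nerve, fat cell, red cell and satellite cell lists were not. Fast-fibre markers of the first M92KO mouse summed to 106659 CPM, the highest. The third WT mouse was close to this sum, with 105835 CPM, and its Ago2 value was 36.3 CPM. The part of these cell markers in the Ago2 value was not tested. An exon of Ago2 shares 219 bases with Chrac1 on the opposite strand, 1.56% of its exon bases.

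**Figure D2:**
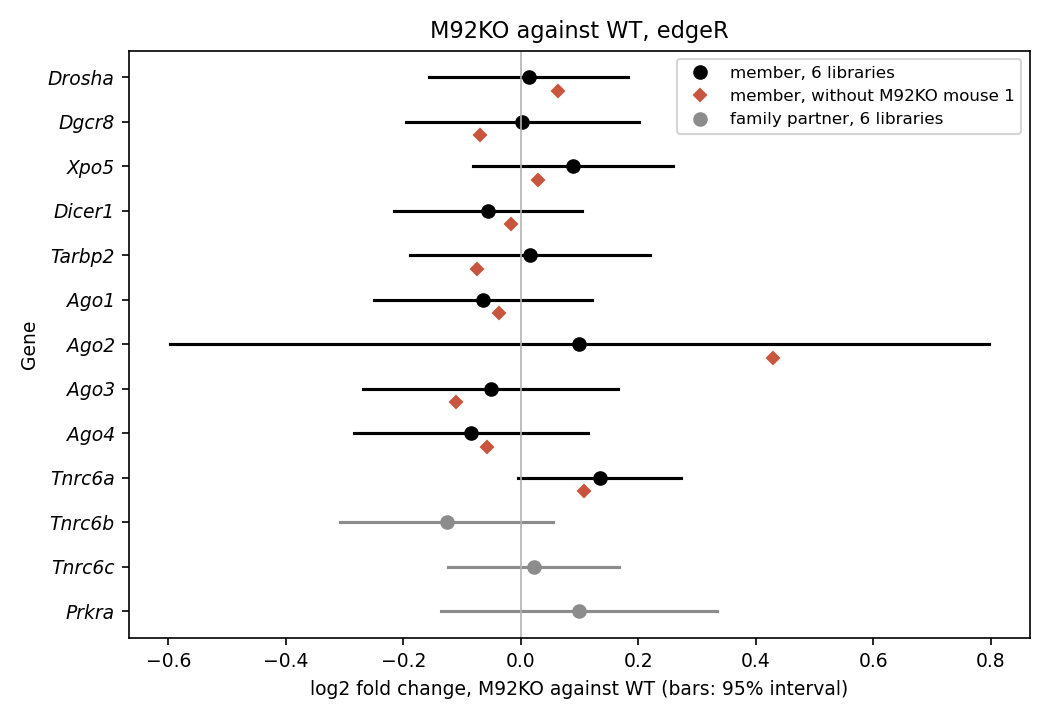
Log2 fold change of M92KO against WT (x axis) with its 95% interval from edgeR for the 10 machinery genes (black) and for Tnrc6b, Tnrc6c and Prkra (grey), with the value without the first M92KO mouse as red diamonds. All intervals include 0, the one of Ago2 is the widest, from -0.60 to 0.80, and Ago2 moves to 0.43 without that mouse.

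Tnrc6a (ENSMUSG00000052707, chr7:123123885-123195296, plus strand), which encodes the GW182 scaffold that links Argonautes to deadenylases, had the smallest p-value of the 10 genes. It stood at 74.6, 72.9 and 73.5 CPM in WT and at 83.8, 79.8 and 78.9 CPM in M92KO mice. The lowest M92KO value was above the highest WT value, with a two-sided exact permutation p = 0.1, the smallest that 3 mice against 3 can give. The log2 fold change was 0.13 (standard error 0.061, 95% interval -0.01 to 0.27), and Tnrc6a did not pass the adjustment (adjusted p = 0.426 from edgeR). With each mouse left out in turn, its log2 fold change stayed between 0.11 and 0.15. With offsets that remove the trends of each library with GC content and transcript length, it was 0.20 with an unadjusted p-value under 0.05 and an adjusted p = 0.347 from edgeR, and adjusted p-values of Tnrc6a ran from 0.307 to 0.759 over all alternatives.

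The paralogues of Tnrc6a gave other values. Tnrc6b stood at 128, 143 and 128 CPM in WT and at 112, 129 and 124 CPM in M92KO mice, with a log2 fold change of -0.13 (95% interval -0.31 to 0.06, adjusted p = 0.579 from edgeR). Tnrc6c stood at 63.1, 60.3 and 60.6 CPM in WT and at 63.6, 63.7 and 59.6 CPM in M92KO mice (log2 fold change 0.02, adjusted p = 0.927 from edgeR). The groups overlapped for both paralogues.

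Shares within a family do not depend on the scaling between libraries. Of the Tnrc6 counts per exon base, Tnrc6a made up 36.3%, 34.9% and 36.4% in WT and 40.5%, 37.6% and 38.6% in M92KO mice. Tnrc6b made up 33.4%, 36.6% and 33.9% in WT and 29.1%, 32.6% and 32.5% in M92KO mice. The groups did not overlap for either gene, and the mean share was 3.08 percentage points higher for Tnrc6a and differed by -3.22 percentage points for Tnrc6b in M92KO mice. Each had a two-sided exact permutation p = 0.1, the smallest possible, and an adjusted p = 0.35 over the 7 shares tested. The shares of a family sum to a whole and are not independent of each other.

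Among the Argonautes, Ago1 had the largest mean share in WT muscle, 29.3% ± 0.27 (SD, n = 3), followed by Ago2 with 27.2% ± 2.68, Ago4 with 22.7% ± 0.95 and Ago3 with 20.7% ± 1.98. In M92KO mice the means were 28.7% for both Ago1 and Ago2, 21.9% for Ago4 and 20.7% for Ago3. The share of Ago2 was 30.03%, 24.7% and 27.0% in WT and 17.1%, 35.7% and 33.3% in M92KO mice. Ago2 thus had the smallest share of the family in the first M92KO mouse and the largest in the other 2. The adjusted p-values of all 4 Argonaute shares were 1 by exact permutation tests. The log2 ratio of Ago2 to Tnrc6a, per exon length, was -2.17 in the first M92KO mouse, -0.64 and -0.82 in the other M92KO mice and between -1.16 and -0.88 in WT (two-sided exact permutation test, p = 1).

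**Figure D3:**
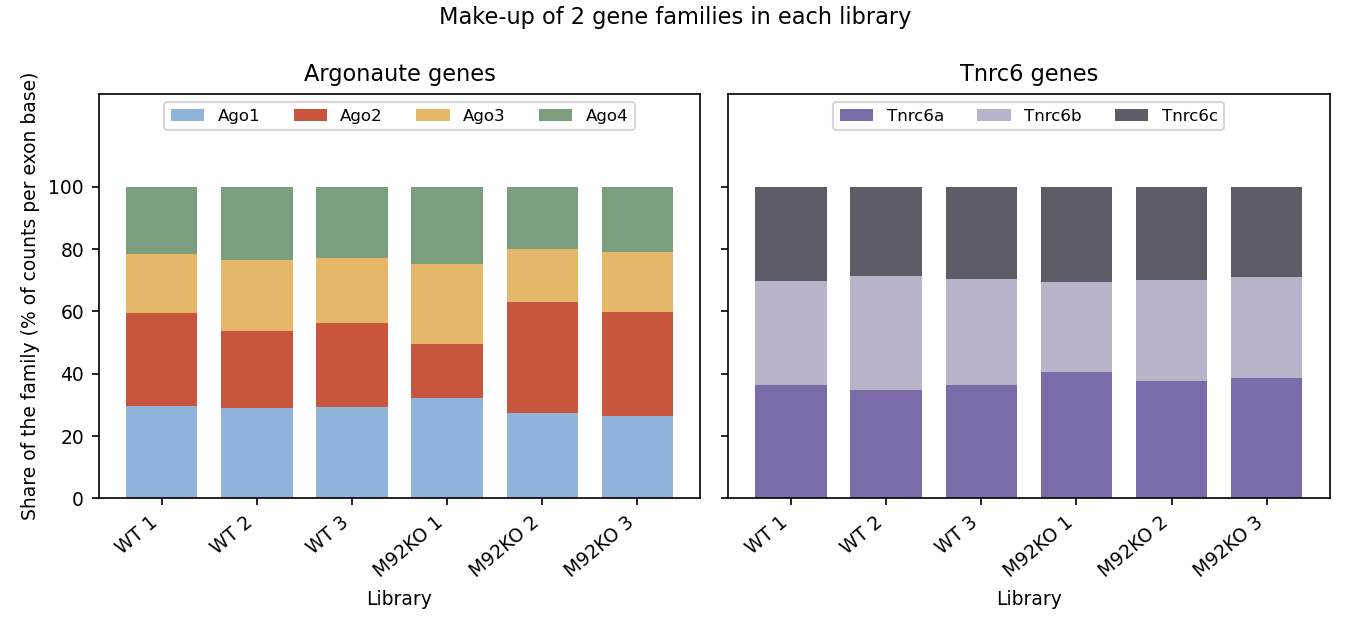
Share of each gene (y axis, percent of the counts per exon base of its family) in the 6 libraries (x axis) for Ago1 to Ago4 (left) and Tnrc6a to Tnrc6c (right). The Ago2 share is 17.1% in the first M92KO library and 35.7% and 33.3% in the others, and the Tnrc6a share is higher in all M92KO libraries than in WT libraries.

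Levels were compared between genes only as CPM per kilobase of annotated exon sequence. On this scale the means in WT muscle ran from 7.63 ± 0.37 (SD, n = 3) for Drosha to 2.13 ± 0.23 for Ago3. Over the 6 libraries, the values of Drosha were all above those of the next gene. Tarbp2 (5.97 ± 0.11), Tnrc6a (5.80 ± 0.067) and Xpo5 (5.19 ± 0.21) came next, and the ranges of neighbours in this order overlapped. Dicer1 followed with 4.67 ± 0.13, apart from Xpo5 above and Dgcr8 below. Dgcr8 (3.17 ± 0.16), Ago1 (3.01 ± 0.18), Ago2 (2.80 ± 0.34), Ago4 (2.33 ± 0.16) and Ago3 each overlapped their neighbours. All 4 Argonautes thus stood in the last places by mean level. Single values were not all below the genes of processing. Those of Dgcr8 ran from 2.95 to 3.49, those of Ago1 from 2.77 to 3.15 and those of Ago2 from 1.46 to 4.02. With the length of the longest annotated transcript instead, Tarbp2 came before Drosha and Dicer1 before Xpo5, and the last 5 places were the same.

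The library of the first M92KO mouse held an extreme value for more of these genes than any other library. It held the highest of the 6 values for Dgcr8, Xpo5, Tarbp2 and Tnrc6a and the lowest for Drosha, Dicer1, Ago1, Ago2 and Ago4, or 9 of the 10 genes. The second M92KO mouse held an extreme value in 6 genes, the second WT mouse in 4, the first WT mouse in 1, and the third mouse of each genotype in 0. Over all genes tested, the first M92KO library held an extreme value in 50.4%, so extreme values in it were common outside the machinery too. Without it, the log2 fold changes were 0.06 for Drosha, -0.07 for Dgcr8, 0.03 for Xpo5, -0.02 for Dicer1 and -0.07 for Tarbp2. Those of Dgcr8 and Tarbp2 were thereby on the other side of 0.

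**Figure D4:**
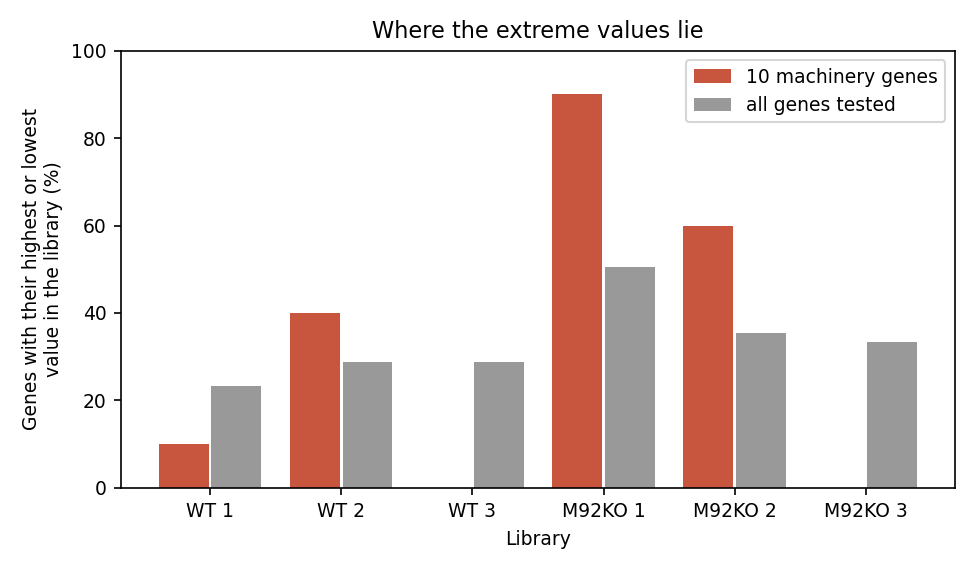
Percent of genes (y axis) that had their highest or lowest CPM of the 6 libraries in each library (x axis), for the 10 machinery genes (red) and for the 15788 genes tested (grey). The first M92KO library holds an extreme value for 9 of the 10 machinery genes and for 50.4% of all genes tested.

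A list of 64 other genes of the microRNA pathway was examined beside the 10. Of these, 59 were tested and 0 had an adjusted p-value under 0.05 in edgeR. At an unadjusted p-value of 0.05, 4 genes were higher and 2 were lower in M92KO mice, where 5.47% and 6.92% of all genes tested were. In 14 of the 59 genes (23.7%) the groups did not overlap, against 18.3% of all genes tested. Over the list, log2 fold changes had a median of -0.04, against -0.00 over all genes tested. The 5 genes that were not tested had at most 11 counts in a library. Among them were Lin28a and Lin28b, which block let-7 processing in early development, the stem cell factor Trim71, and Piwil1 and Piwil4 of the germline Piwi clade.

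None of the 8 partners of the Microprocessor and of export (Ddx5, Ddx17, Srrt, Khsrp, Hnrnpa1, Ran, Ncbp1 and Ncbp2) had an unadjusted p-value under 0.05, and their log2 fold changes ran from -0.15 to 0.11. The same held for 5 tested genes of precursor control and tailing (Tut4, Tut7, Dis3l2, Adar and Prkra), from -0.20 to 0.10. Of 7 chaperones and import factors for Argonaute, with log2 fold changes from -0.30 (Hsp90aa1) to 0.25, 1 had an unadjusted p-value under 0.05. This was Stip1, the co-chaperone Hop, with 118, 121 and 139 CPM in WT and 135, 156 and 159 CPM in M92KO mice, a log2 fold change of 0.25 and an adjusted p = 0.336 from edgeR. In 4 genes of these roles the groups did not overlap although the unadjusted p-value was above 0.05. Hnrnpa1 and Ran lay above WT (log2 fold changes of 0.06 each), and Adar (-0.20) and the import factor Ipo8 (-0.17) lay below.

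Of 18 genes of GW182 proteins and deadenylation, which include Tnrc6b, Tnrc6c and the poly(A)-binding protein gene Pabpc1, 3 had an unadjusted p-value under 0.05. Cnot7, a catalytic deadenylase of the CCR4-NOT complex, stood at 59.1, 58.6 and 63.0 CPM in WT and at 66.8, 65.4 and 71.5 CPM in M92KO mice, with no overlap (log2 fold change 0.17, standard error 0.068, adjusted p = 0.365 from edgeR). Other genes of this complex went both ways. Cnot2 (log2 fold change -0.15), Cnot6 (-0.15) and Cnot6l (-0.16) lay below all WT values, and Cnot11 (0.13) lay above them. Their unadjusted p-values from edgeR were above 0.05. The median log2 fold change of the 18 genes was -0.10. Tob2, which recruits deadenylases, stood at 168, 196 and 354 CPM in WT and at 137, 152 and 153 CPM in M92KO mice. All 3 M92KO values lay below the WT values, and the third WT mouse was far above the other WT mice. The log2 fold change of Tob2 was -0.70 (standard error 0.24, adjusted p = 0.314 from edgeR). Pan3, the adaptor of the Pan2 deadenylase, overlapped between the groups, with 38.2, 44.2 and 56.2 CPM in WT, 38.8, 33.2 and 31.9 CPM in M92KO mice, a log2 fold change of -0.42 and an adjusted p = 0.304 from edgeR. Its highest value was also that of the third WT mouse. Without this mouse, 1 gene of the wider list was lower at an unadjusted p-value of 0.05 in edgeR, as was the case without the second M92KO mouse. Over all genes, 1272 passed this threshold in either direction without the third WT mouse and 1691 without the second M92KO mouse.

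In decapping, decay and repression, 1 of 17 genes had an unadjusted p-value under 0.05. Lsm14a, a processing-body protein, stood at 111, 109 and 113 CPM in WT and at 122, 121 and 131 CPM in M92KO mice, and its log2 fold change was 0.17, with an adjusted p = 0.352 from edgeR. Of the turnover genes, Snd1, a nuclease of the Tudor family, stood at 43.2, 45.1 and 44.0 CPM in WT and at 46.3, 52.4 and 50.5 CPM in M92KO mice, and its log2 fold change was 0.17, with an adjusted p = 0.373 from edgeR. The groups did not overlap for either gene. Edc3 of the decay list (log2 fold change -0.17) and Parn of the turnover list (-0.16) lay below all WT values. Their unadjusted p-values from edgeR were above 0.05. The lowest log2 fold change of the list was that of Btg2, which also recruits deadenylases, at -1.25 with an adjusted p = 0.41 from edgeR. Its WT mice were spread from 39.9 to 277 CPM around the M92KO mice, and the third WT mouse was the highest. Stip1, Pan3, Btg2, Hsp90aa1, Hnrnpa1, Ran, Adar, Ipo8, Cnot2, Cnot6, Cnot6l, Cnot11, Edc3 and Parn were picked once their values were known.

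**Figure D5:**
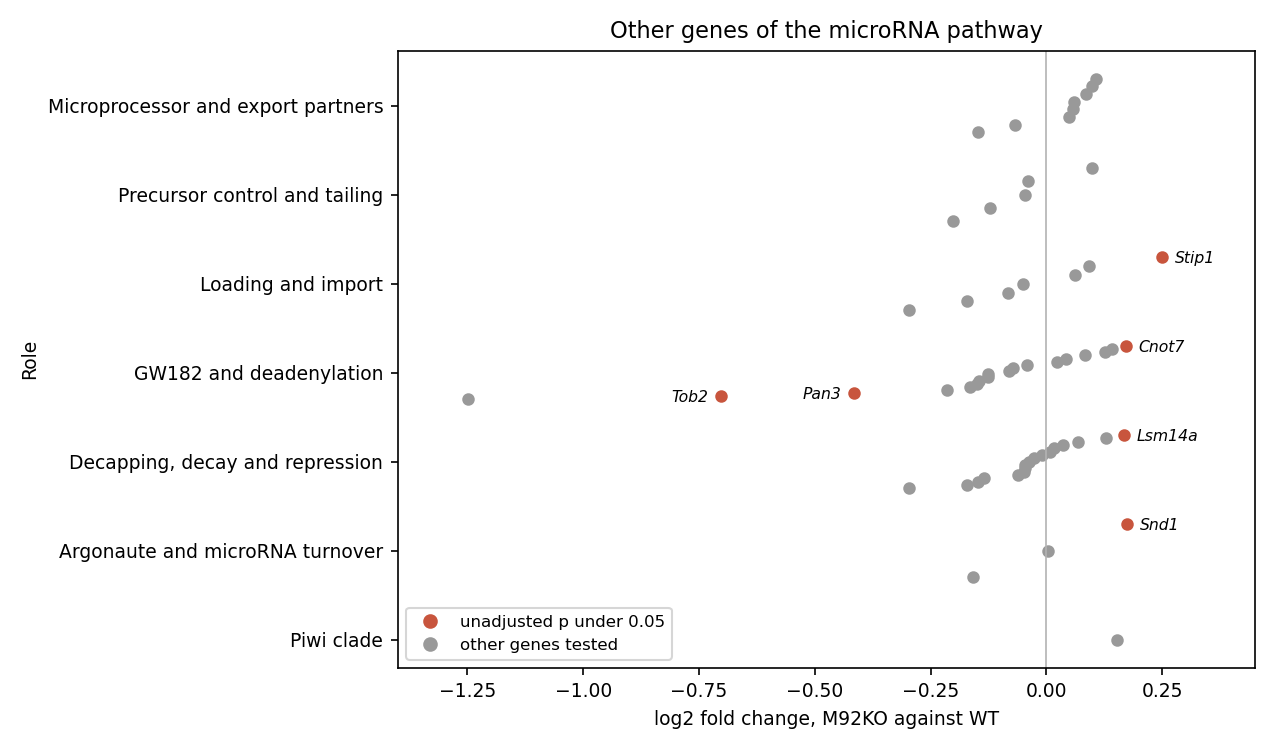
Log2 fold change of M92KO against WT (x axis) for the 59 tested genes of the wider pathway, 1 point a gene, by role (y axis), with genes at an unadjusted p-value under 0.05 in red and named. Most points lie near 0, 4 named genes lie to the right and 2 to the left, and 0 of the 59 passed the adjustment.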

How the data were processed

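The authors deposited raw counts per gene symbol and library, made from SMARTer mRNA libraries. The submitters' processing notes name GRCm38 and mm10, and the aligner, the counting program, the annotation and the strand setting are not given in the sources used here. The test was that of edgeR 4.0.16 in R 4.3.3 (filterByExpr with minimum count 10 and minimum total count 15, TMM, glmQLFit and glmQLFTest without a covariate), with Benjamini-Hochberg adjustment over the 15788 genes that passed the filter. p-values measure the spread between 3 mice per group. Single shares and ratios were compared with exact permutation tests. Lengths, GC content and 3′-UTRs came from GENCODE M21, in which 25731 of the symbols matched directly and 419 by a synonym. The fit was tested on simulated data. The changes planted there were larger than those of the machinery genes, so it gives no measure of power for small differences.

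Members and gene lists were chosen with earlier results of these data known. Named genes were the 10 members, Tnrc6b, Tnrc6c and Prkra, and from the wider list up to 6 in each direction with the smallest p-value among those with an unadjusted p-value under 0.05 and groups that do not overlap. Alternatives were DESeq2 1.42.0 (size factors, and the Wald test), other filters on low counts, quantile normalization with log2(count + 1) and limma 3.58.1 as in the study's supplementary methods, the replicate number as a block, offsets for GC content and length (lowess span 0.3), and each library left out. Leaving out a library for the ratios was added after seeing the data. Figures were made in Python 3.11.15 with matplotlib 3.10.9.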

Additional observations from a re-analysis of the deposited data

How the results depend on the processing

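Under 14 alternatives, 126 of the 140 log2 fold changes of the 10 genes kept their direction and stayed above an adjusted p-value of 0.05, 14 reversed, and 0 became called. Reversed values apart from those with a library left out were -0.0029 for Dgcr8 without a filter on low counts, 0.0028 for Dicer1 with GC and length offsets and 0.0033 with these offsets and the replicate block, and for Ago2 -0.021 with quantile normalization and limma and -0.00055 with the replicate block. With a library left out, log2 fold changes ran from -0.025 to 0.063 for Drosha, -0.070 to 0.052 for Dgcr8, -0.074 to 0.083 for Tarbp2, -0.17 to 0.43 for Ago2 and -0.11 to 0.040 for Ago3. The cause was not tested.

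At an unadjusted p-value of 0.05, 1 of the 10 genes (Tnrc6a) passed with GC and length offsets, with and without the replicate block. Of the 15788 genes tested, 2036 passed with these offsets and 1714 with the offsets and the block. Leaving out a library gave 0 to 1 of the 10 genes. In the wider list, the higher genes numbered 6 with GC and length offsets, 2 without a filter and 1 with the replicate block, and 0 to 5 with a library left out. The lower genes numbered 4 without a filter, 1 with quantile normalization and limma, 4 with GC and length offsets, and 1 to 10 with a library left out, the highest without the first M92KO mouse. Over all genes, in both directions together, 2207 passed without a filter, 2287 with quantile normalization and limma and 1691 with the replicate block. Without the first M92KO mouse 2984 did so, against 1955 in the main fit. These totals were not split by direction. Of all genes, those with an adjusted p-value under 0.05 numbered 312 with DESeq2's Wald test, 6 without a filter, 42 with quantile normalization and limma and 2 with the replicate block, with and without offsets. Leaving out a library gave 0 to 401 such genes, the highest without the first M92KO mouse, and 1222 to 2984 with an unadjusted p-value under 0.05. Same-numbered mice deviated together only weakly (correlations 0.081, 0.038 and 0.015), so the number was not taken as a pairing.

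Family shares and partner ratios with a library left out changed most for Ago2, whose share difference ran from -2.07 to 7.25 percentage points and whose log2 ratio to Tnrc6a differed by -0.44 to 0.33. The Tnrc6a share difference ran from 2.29 to 3.73 and that of Tnrc6b from -3.84 to -2.06.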
